A study of Mus musculus with 15 samples.

Results

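The expression of 9 complement genes was followed in whole kidney of 15 mice: C1qa, C1qb, C1qc, C1ra, C1s1, C2, C3, C4b and Cfb. They were taken by gene symbol from the deposited count tables, and all 9 were found among 26823 named genes. There were 3 groups of 5 mice, each killed at 4 months of age. cFGF23-Hyp mice carried the Hyp genotype (Phex_KO in the labels) and received AAV-cFGF23, an adeno-associated virus encoding the carboxy-terminal part of FGF23, by intravenous injection when 4 weeks old, with 1e12 vector genomes for each mouse. Hyp mice carried the same genotype and received PBS, and WT mice received PBS. No group received an empty virus, so the effect of the encoded peptide and that of the virus cannot be told apart. The promoter that drives cFGF23 is not given in the sources used here. Loss of Phex, a cell-surface endopeptidase gene on the X chromosome, is a model of X-linked hypophosphatemia, in which the hormone FGF23 is in excess and the kidney wastes phosphate.

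Complement is a cascade of plasma proteins that marks particles for uptake and calls in white blood cells. In the classical pathway C1q binds immune complexes or dying cells, its attached proteases C1r and C1s cut C4 and C2, and the resulting enzyme cuts C3. In the alternative pathway factor B, bound to C3b, is cut by factor D and forms a second enzyme that cuts C3 and amplifies the response. Most circulating complement comes from the liver. C1q is made mainly by macrophages and dendritic cells, and kidney tubule cells can make C3.

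Total counts per library ran from 13083190 in cFGF23-Hyp_3 to 21829906 in WT_4, and the 9 complement genes had 38 to 1912 reads in a library. Phex was at 0 reads in every cFGF23-Hyp library, 0 to 3 in Hyp and 0 to 1 in WT, so Phex reads could not check the genotype labels. Proximal tubule markers (8 genes, Slc34a1, Lrp2 and Slc22a6 the highest) summed to 8990 to 11400 CPM in every library, so the tissue label and the markers of kidney tubule go together. CPM are read counts relative to the size of the library, scaled by the trimmed mean of M values (TMM). Of the 15 libraries, 3 stood apart and are marked in the plots. WT_5 is WT by its title, but its genotype label reads Phex_KO and its cell type label Hyp. The 18 type I interferon genes summed to 285 CPM there, and to 76.3 to 95.9 CPM in the other 4 WT libraries. In cFGF23-Hyp_5 they summed to 71.9 CPM, against 165 to 637 CPM in cFGF23-Hyp_1 to cFGF23-Hyp_4. On the first principal component cFGF23-Hyp_3 was at 76.08 and the rest between -17.10 and 11.93. The labels name 1 mouse per library and no batch, cage or date, so p-values measure the spread between these mice. Results are given with all 15 libraries grouped by title and, where they differ, without WT_5 and cFGF23-Hyp_5.

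None of the 9 complement genes passed the test in any of the 3 comparisons with all libraries. In cFGF23-Hyp against WT, where the groups differ in both genotype and treatment, 8 of the 9 had a positive log2 fold change. Their median was 0.32, beside 0.015 over all 15789 genes tested. It was 0.61 without WT_5 and cFGF23-Hyp_5, 0.20 without WT_2, 0.49 without cFGF23-Hyp_5 and 0.15 without cFGF23-Hyp_3. C4b (0.86 ± 0.29, SE) and C2 (0.71 ± 0.19) had the highest estimates, with adjusted p of 0.724 and 0.668 (edgeR quasi-likelihood test, Benjamini-Hochberg adjustment over all genes tested). At an adjusted p below 0.05, 0 of the 9 were called, against 0.0% of all genes tested. DESeq2 and limma-voom also called 0 of the 9, where they called 0.038% and 0.0% of all genes. At an unadjusted p below 0.05, 3 of the 9 passed (C1qa, C2 and C4b), against 5.73% of all genes. This count was 2 without WT_1, WT_2, cFGF23-Hyp_1 or cFGF23-Hyp_3.

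In cFGF23-Hyp against Hyp, which asks what the treatment altered, the 9 genes did not lean one way. Log2 fold changes were positive for C1qa, C1qb, C2 and C4b and negative for the other 5, with a median of -0.06 beside 0.008 over all genes. C4b had the highest estimate, 0.68 ± 0.29 (SE, adjusted p = 0.441, edgeR), and C3 the lowest, -0.44 ± 0.38 (adjusted p = 0.666). With 1 library left out C3 ran from -0.65 (without Hyp_2) to -0.13 (without Hyp_4), where C1ra at -0.17 lay below it. Again 0 of the 9 were called, against 0.0% of all genes, and DESeq2 (0.735% of all genes) and limma-voom (0.0127%) called none of them. C4b alone had an unadjusted p below 0.05, so 1 of 9 passed that threshold, against 10.4% of all genes. None did without Hyp_1, Hyp_4, cFGF23-Hyp_1, cFGF23-Hyp_2 or cFGF23-Hyp_3, and 2 did without cFGF23-Hyp_5. The authors' deposited table gives C4b a log2 fold change of 0.68 with an adjusted p of 0.485.

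In Hyp against WT, which asks what loss of Phex altered, 8 of 9 genes had a positive log2 fold change, with a median of 0.38 beside 0.003 over all genes. C3 had the highest estimate (0.72 ± 0.38, SE, adjusted p = 0.425, edgeR). C1ra (0.46 ± 0.18), C2 (0.45 ± 0.19) and C1s1 (0.38 ± 0.16) followed with smaller errors and adjusted p of 0.27, 0.308 and 0.317. Cfb was at -0.01 ± 0.22. Of the 9, 0 were called, against 0.342% of all genes (54 genes), and neither DESeq2 (2.25% of all genes) nor limma-voom (0.481%) called any. C1ra, C2 and C1s1 had an unadjusted p below 0.05, so 3 of 9 passed that threshold, against 13.4% of all genes. This count was 0 without WT_2, 1 without WT_1, Hyp_4 or Hyp_5 and 2 without WT_4, WT_5 or Hyp_3, and the median of the 9 was 0.25 without WT_2. Some marker lists of cell types leaned the same way and some did not. Proximal tubule markers had 3 of 8 positive (median -0.11), and the 1 tested T and NK cell marker was negative (-0.225). Endothelial markers had 10 of 10 positive (median 0.33, 7 at an unadjusted p below 0.05) and podocyte markers 5 of 6 (median 0.35, 4). B and plasma cell markers had 4 of 5 positive (median 0.70), with Jchain called (1.87 ± 0.38, SE, adjusted p = 0.0478). The endothelial sum ran from 472 to 624 CPM in Hyp and 365 to 540 in WT, the podocyte sum from 290 to 394 and 230 to 278, and the B and plasma cell sum from 35.5 to 84.9 and 13.8 to 26.9. The part of these cell types in the complement values was not tested. In the authors' deposited table the adjusted p was 0.0719 for C2, 0.0939 for C1ra and 0.119 for C1s1. The comparisons share libraries (Hyp or WT), so their values for a gene are not independent.

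**Figure D1:**
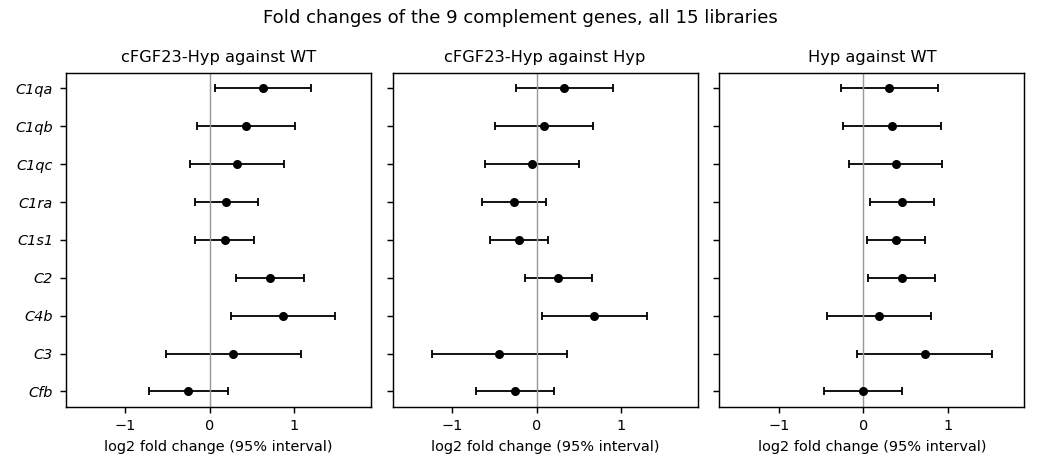
Log2 fold change of each complement gene with its 95% interval (x axis) from the edgeR fit of all 15 libraries, 1 panel per comparison and 1 row per gene. The intervals of C1qa, C2 and C4b in cFGF23-Hyp against WT, of C4b in cFGF23-Hyp against Hyp and of C1ra, C1s1 and C2 in Hyp against WT lie above 0, and none of these genes passed after adjustment over all genes.

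Leaving out WT_5 and cFGF23-Hyp_5 moved C2 and C4b past the threshold. C2 then rose in cFGF23-Hyp against WT (log2 fold change 1.05 ± 0.11, SE; adjusted p = 0.000324, edgeR). It also rose in Hyp against WT, by 0.67 ± 0.11 (adjusted p = 0.0071). C4b rose in cFGF23-Hyp against WT by 1.21 ± 0.26 (adjusted p = 0.0366). That made 2 of 9 called in cFGF23-Hyp against WT, where 1.11% of all genes were called, and 1 of 9 in Hyp against WT, where 1.43% were. In cFGF23-Hyp against Hyp 0 of 9 were called, against 0.421% of all genes, with C4b at 0.87 ± 0.24 (adjusted p = 0.279) and C2 at 0.38 ± 0.10 (adjusted p = 0.256). At an unadjusted p below 0.05, 5 of 9 passed in cFGF23-Hyp against WT (9.74% of all genes), 2 in cFGF23-Hyp against Hyp (8.89%) and 4 in Hyp against WT (16.6%). WT_5 had the highest C2 and C4b of its group and cFGF23-Hyp_5 the lowest C2. Part of the higher estimates and of the smaller errors therefore comes from which libraries were left out. With all libraries the estimates in cFGF23-Hyp against WT were 0.71 for C2 and 0.86 for C4b. cFGF23-Hyp_5 was set apart by its interferon sum and not by a label. With cFGF23-Hyp_3 left out as well, the same 2 genes were called in cFGF23-Hyp against WT (3.6% of all genes), 0 in cFGF23-Hyp against Hyp (0.389%) and C2 in Hyp against WT (9.43%). With WT_5 counted as Hyp, as its genotype label has it, C2 rose in Hyp against WT (0.70 ± 0.15, adjusted p = 0.0467, where 0.605% of all genes were called), and no member passed in cFGF23-Hyp against WT (0.00624%) or in cFGF23-Hyp against Hyp (0.0%).

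**Figure D2:**
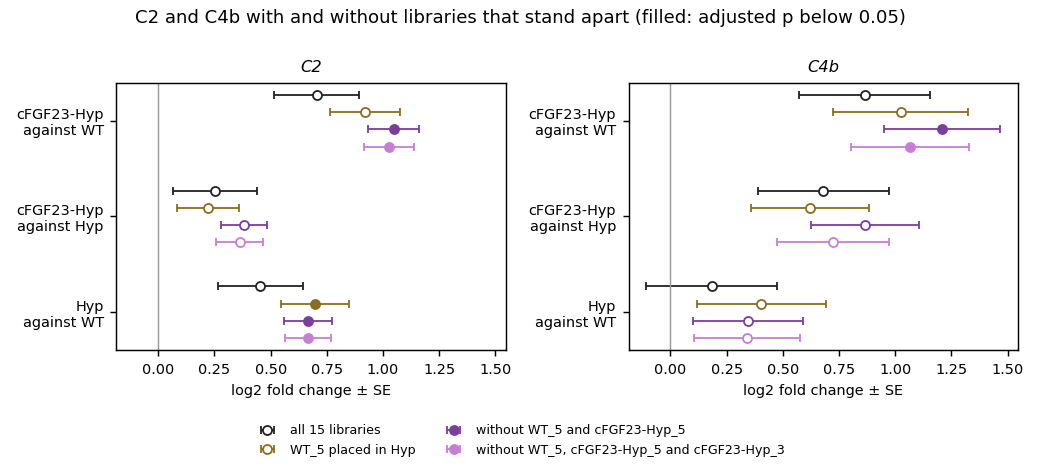
Log2 fold change with its SE (x axis) of C2 (left) and C4b (right) in 3 comparisons under 4 groupings of the libraries, filled where the adjusted p over all genes was below 0.05. All estimates of both genes were positive, and filled points appear only where WT_5 was left out or moved.

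Per length of transcript, C4b, C1qa, C3, C1qb and Cfb lay above the other members in each of the 3 groups. In cFGF23-Hyp kidneys the order, in CPM per kilobase, was C4b (13.6 ± 6.92), C1qa (11 ± 5.23), C1qb (7.34 ± 3.30), C3 (7.06 ± 2.90), Cfb (4.78 ± 1.74), C2 (3.92 ± 0.946), C1s1 (3.32 ± 0.648), C1qc (3.14 ± 1.25) and C1ra (2.90 ± 0.508; SD, n = 5 each), and no neighbours in this order differed beyond their SD. In Hyp kidneys C3 stood first (9.59 ± 5.25), before C1qa (8.76 ± 1.67) and C4b (8.49 ± 0.764), and C1qc last (3.26 ± 0.544), with a gap wider than the SD between Cfb (5.73 ± 0.541) and C1s1 (3.83 ± 0.860). In WT kidneys C4b (7.47 ± 1.92), C1qa (7.08 ± 2.0), C3 (5.79 ± 2.28), Cfb (5.77 ± 1.22) and C1qb (5.41 ± 1.63) lay within 1 SD of their neighbours. Below them came C1s1 (2.93 ± 0.320), C1ra (2.54 ± 0.539), C1qc (2.49 ± 0.761) and C2 (2.40 ± 0.737), which did not differ beyond their spread either. C2 was thus at place 6 of the 9 in cFGF23-Hyp kidneys and at place 9 in WT kidneys.

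**Figure D3:**
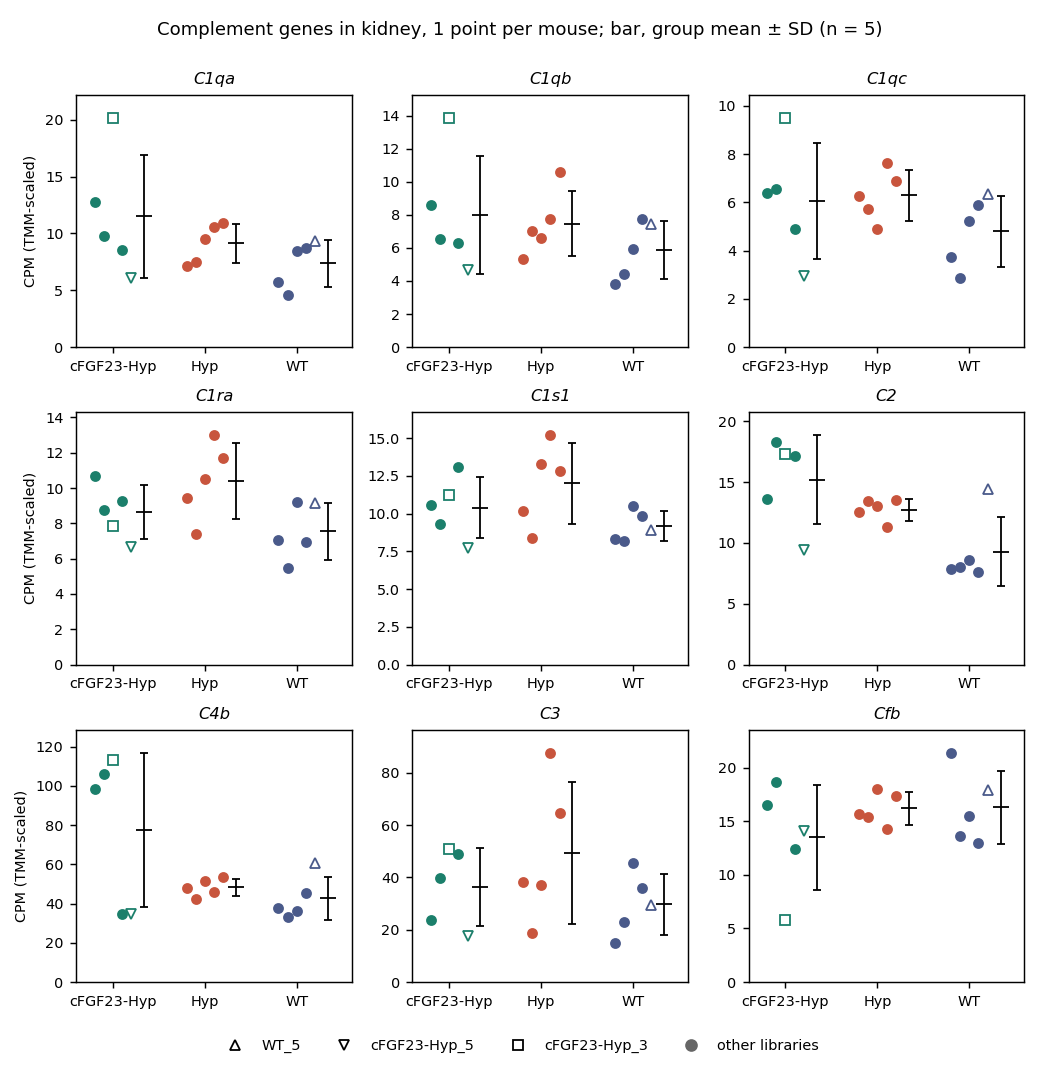
TMM-scaled CPM (y axis) of each complement gene by group, 1 point per mouse, with the group mean ± SD (n = 5) to the right of the points. Open symbols mark WT_5, cFGF23-Hyp_5 and cFGF23-Hyp_3, and groups overlap in every panel when all libraries are counted.

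C1qa, C1qb and C1qc encode the 3 chains of C1q, the recognition molecule that starts the classical pathway. Their genes lie side by side on chromosome 4, all on the minus strand and within 18675 bases as the deposited tables place them: C1qa (ENSMUSG00000036887) at 136623228 to 136626114, C1qc (ENSMUSG00000036896) at 136617115 to 136620376 and C1qb (ENSMUSG00000036905) at 136607440 to 136613498. The deposited positions did not coincide with those of GRCm38 (0 of the 9 genes shared a start), so they are not combined with other coordinates. RefSeq promoters were matched for 5 of the 9 genes, and the 250 bases before the start site are shown, 5′ to 3′, on GRCm38.p6. Those of C1qb and C1qc are given because both genes varied together across mice. Capitals mark motif matches.
C1qb, chr4:136886201-136886450, minus strand: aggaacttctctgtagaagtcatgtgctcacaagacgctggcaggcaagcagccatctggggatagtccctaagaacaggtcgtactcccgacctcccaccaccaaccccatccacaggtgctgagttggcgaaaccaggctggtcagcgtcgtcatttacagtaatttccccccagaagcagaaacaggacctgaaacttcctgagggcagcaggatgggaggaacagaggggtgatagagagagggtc
C1qc, chr4:136892915-136893164, minus strand: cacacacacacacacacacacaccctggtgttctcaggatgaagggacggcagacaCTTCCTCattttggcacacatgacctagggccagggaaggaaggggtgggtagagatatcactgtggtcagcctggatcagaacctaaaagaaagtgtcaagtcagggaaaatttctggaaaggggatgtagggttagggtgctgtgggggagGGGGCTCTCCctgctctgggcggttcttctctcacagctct
In C1qc the first run of capitals is a PU.1 core (GAGGAAG, read on the other strand) at -194 to -188 from the start site, and the second an NF-kB consensus site at -41 to -32. PU.1 is a transcription factor of macrophages and other blood cells. The other motifs searched on both strands were the interferon-stimulated response element (GAAA, any 2 bases, then GAAA), the GAS element (TTCNNNGAA) and the C/EBP site (TTGCNNCAA). Of 32851 promoters of this length, 10.6% held the PU.1 core, 7.25% the NF-kB site, 2.98% the interferon element, 7.02% the GAS element and 1.74% the C/EBP site. The windows of C1qb, C1ra, C1s1 and C3 held none of the 5.

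C1qa was at 12.8, 9.81, 20.2, 8.50 and 6.10 CPM in cFGF23-Hyp_1 to cFGF23-Hyp_5. It was at 7.09, 7.51, 9.51, 10.5 and 10.9 CPM in Hyp_1 to Hyp_5 and at 5.75, 4.58, 8.42, 8.69 and 9.37 CPM in WT_1 to WT_5. The highest cFGF23-Hyp library was cFGF23-Hyp_3, the lowest cFGF23-Hyp_5, and the groups overlapped. C1qb averaged 7.99 ± 3.59 CPM in cFGF23-Hyp, 7.47 ± 1.97 in Hyp and 5.88 ± 1.78 in WT, and C1qc 6.06 ± 2.42, 6.29 ± 1.05 and 4.81 ± 1.47 CPM (SD, n = 5 each). For all 3 genes cFGF23-Hyp_3 was the highest of the 15 libraries. In cFGF23-Hyp against WT the log2 fold changes were 0.63 ± 0.27 for C1qa, 0.43 ± 0.28 for C1qb and 0.32 ± 0.26 for C1qc (SE; adjusted p = 0.839, 0.964 and 0.996, edgeR). Without cFGF23-Hyp_3 they were 0.34, 0.15 and 0.12 (adjusted p = 0.582, 0.848 and 0.886), and without WT_5 and cFGF23-Hyp_5 they were 0.89, 0.67 and 0.61 (adjusted p = 0.194, 0.447 and 0.388). In Hyp against WT they were 0.30, 0.34 and 0.38, with adjusted p of 0.659, 0.623 and 0.558. In cFGF23-Hyp against Hyp they were 0.33 ± 0.27, 0.09 ± 0.27 and -0.06 ± 0.26, and without cFGF23-Hyp_3 they were 0.04 ± 0.23, -0.19 ± 0.24 and -0.26 ± 0.25 (adjusted p = 0.973, 0.814 and 0.749). Without WT_5 and cFGF23-Hyp_5 they were 0.48, 0.23 and 0.12.

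The 3 C1q genes varied together from mouse to mouse. Across 15 libraries log2 CPM of C1qa and C1qb had a Pearson's r of 0.92 and a Spearman's rho of 0.89 (permutation adjusted p = 0.00036 and 0.00072, over 36 pairs of the 9 genes). C1qa and C1qc had r = 0.87 and rho = 0.85 (adjusted p = 0.00036 and 0.00234), and C1qb and C1qc r = 0.85 and rho = 0.81 (adjusted p = 0.00108 and 0.00257). Without the 2 libraries farthest from the median of the gene named first, r was 0.88, 0.76 and 0.79. With group means taken out, so that only mice within a group are compared, r was 0.93, 0.90 and 0.83. Among 11964 genes whose mean log2 CPM reached 1, the 5 protein-coding genes most like the mean of the trio were Fkbp7 (r = 0.92, rho = 0.88), Psmb10 (0.89, 0.79), Psmb9 (0.88, 0.86), Fxyd5 (0.88, 0.80) and Srgn (0.87, 0.70). Psmb9 and Psmb10 encode subunits of the immunoproteasome, and Srgn a proteoglycan of blood cell granules. No 50-base stretch of a C1q transcript occurred in another gene of GENCODE M21.

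Macrophage markers bore on the C1q values and were measured as a list. All 16 were detected, Cd74, Csf1r and Mertk the highest, and their sum ran from 255 to 392 CPM in cFGF23-Hyp, 322 to 384 in Hyp and 277 to 320 in WT. Within cFGF23-Hyp, cFGF23-Hyp_3 had the highest sum and cFGF23-Hyp_5 the lowest, as for C1qa, but not every marker followed. In cFGF23-Hyp_3 Cd74 was at 196 CPM, the highest of the group, while Csf1r was at 64.8 CPM (group range 63.8 to 104) and Mertk at 22.7 CPM, the lowest. Cx3cr1, Fcgr1, Aif1, Tyrobp, Lyz2, Ms4a7 and Lgals3 were also at their group's highest in cFGF23-Hyp_3, and the other markers were not. In cFGF23-Hyp_5 most of the list was at the group's lowest, among them Csf1r (63.8 CPM), Cd74 (96.0), Lyz2 (16.8) and Cd14 (2.63). Mertk (45.0 CPM), Aif1 (1.08) and Tyrobp (2.47) were not. The defining markers Adgre1 and Cd68 averaged 2.52 and 2.16 CPM, and Trem2 and Ms4a7 0.37 and 0.431 CPM. Of 14 tested markers 0 were called in any comparison, against 0.342% of all genes in Hyp against WT and 0.0% in the other comparisons. At an unadjusted p below 0.05 (edgeR), 2 passed in cFGF23-Hyp against WT (5.73% of all genes). In cFGF23-Hyp against Hyp 1 did (10.4%), and in Hyp against WT 3 did (13.4%). Log2 fold changes were positive for 14 in cFGF23-Hyp against WT (median 0.28), 5 in cFGF23-Hyp against Hyp (-0.13) and 13 in Hyp against WT (0.28). In bulk RNA, more macrophages and more C1q RNA per macrophage cannot be told apart, and the part of macrophage number in the C1q values was not tested.

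C1ra and C1s1 encode the mouse C1r and C1s proteases that C1q carries. They face each other on chromosome 6 in the deposited tables, C1ra (ENSMUSG00000055172) at 124489364 to 124500402 on the plus strand and C1s1 (ENSMUSG00000038521) at 124507304 to 124519318 on the minus strand. The bases before their start sites, and before that of C3, are shown because C1s1 varied with both.
C1ra, chr6:124512371-124512620, plus strand: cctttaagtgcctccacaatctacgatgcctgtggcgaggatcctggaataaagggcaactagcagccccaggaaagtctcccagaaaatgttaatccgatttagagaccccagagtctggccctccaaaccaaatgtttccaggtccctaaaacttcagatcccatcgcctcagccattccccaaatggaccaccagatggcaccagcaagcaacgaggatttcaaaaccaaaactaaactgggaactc
C1s1, chr6:124542360-124542609, minus strand: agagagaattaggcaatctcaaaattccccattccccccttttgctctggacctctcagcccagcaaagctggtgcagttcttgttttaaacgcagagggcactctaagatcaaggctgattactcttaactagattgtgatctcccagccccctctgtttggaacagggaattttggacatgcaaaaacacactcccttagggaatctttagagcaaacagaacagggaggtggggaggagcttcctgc
C3, chr17:57228137-57228386, minus strand: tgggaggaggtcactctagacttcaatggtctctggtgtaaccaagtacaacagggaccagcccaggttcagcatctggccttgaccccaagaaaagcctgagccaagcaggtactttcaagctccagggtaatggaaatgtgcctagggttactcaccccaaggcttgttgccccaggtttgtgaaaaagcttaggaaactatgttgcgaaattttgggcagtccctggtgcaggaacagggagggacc
C1ra was at 10.7, 8.76, 7.83, 9.26 and 6.65 CPM in cFGF23-Hyp_1 to cFGF23-Hyp_5. It was at 9.41, 7.41, 10.5, 13 and 11.7 CPM in Hyp_1 to Hyp_5 and at 7.04, 5.45, 9.20, 6.95 and 9.16 CPM in WT_1 to WT_5. Hyp mice 1, 3, 4 and 5 lay above all WT mice, and Hyp_2 lay among them. C1s1 averaged 10.4 ± 2.03 CPM in cFGF23-Hyp, 12.0 ± 2.69 in Hyp and 9.16 ± 1.00 in WT (SD, n = 5 each), again with Hyp_2 the lowest Hyp library at 8.38 CPM. Both genes had their highest mean in Hyp, and the log2 fold change of cFGF23-Hyp against Hyp was -0.27 ± 0.18 for C1ra and -0.21 ± 0.16 for C1s1 (SE; adjusted p = 0.586 and 0.641, edgeR). That of cFGF23-Hyp against WT was 0.19 ± 0.18 and 0.18 ± 0.16. The paralogs C1rb and C1s2 averaged below 1 CPM in every group (C1rb 0.836, 0.617 and 0.621 CPM and C1s2 0.691, 0.989 and 0.805 CPM in cFGF23-Hyp, Hyp and WT). Of the 50-base stretches of the transcripts, 50.8% of C1ra and 39.0% of C1s1 occurred also in other genes (48.0% of C1ra in C1rb and 24.3% of C1s1 in C1s2), so the counts are uncertain to the extent that reads fit more than 1 gene.

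C1ra and C1s1 varied together across mice (r = 0.82, rho = 0.84, permutation adjusted p = 0.0012 and 0.00252, n = 15). Without the 2 libraries farthest from the median of C1ra r was 0.73, and within groups it was 0.74. C1s1 and C3 were as close (r = 0.85, rho = 0.82, adjusted p = 0.00072 and 0.00257), with r = 0.76 without the 2 farthest libraries and 0.83 within groups. C1ra had r of 0.56 with C1qa (rho 0.63), 0.47 with C1qb (0.45) and 0.63 with C1qc (0.56), the adjusted p of r being 0.0548, 0.11 and 0.0294. cFGF23-Hyp_3 lowered these values, and without it r was 0.84, 0.69 and 0.78, against 0.84 for C1ra and C1s1.

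C4b and C2 encode the 2 proteins, C4 and C2, that C1s cuts and that form the classical C3-cutting enzyme. C4b (ENSMUSG00000073418) lies on chromosome 17 at 34947354 to 34962856, minus strand, within the major histocompatibility complex. C4b was at 98.4, 106, 113, 34.6 and 34.9 CPM in cFGF23-Hyp_1 to cFGF23-Hyp_5. It was at 48.1, 42.5, 51.6, 46.1 and 53.5 CPM in Hyp_1 to Hyp_5 and at 38.0, 33.2, 36.0, 45.2 and 60.5 CPM in WT_1 to WT_5. The cFGF23-Hyp mice thus split, 3 above and 2 below every Hyp mouse, and the group means were 77.5 ± 39.4, 48.4 ± 4.35 and 42.6 ± 10.9 CPM in cFGF23-Hyp, Hyp and WT (SD, n = 5 each). In Hyp against WT the log2 fold change was 0.18 ± 0.29 (SE, adjusted p = 0.818, edgeR).

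The libraries with high C4b were those with high interferon-stimulated genes. The 18 type I interferon genes, among which Irf7, Stat2 and Bst2 were the highest, summed to 637, 537, 405, 165 and 71.9 CPM in cFGF23-Hyp_1 to cFGF23-Hyp_5. The sum was 77.1 to 97.3 CPM in Hyp and 76.3 to 285 CPM in WT, with WT_5 the highest there, as for C4b. cFGF23-Hyp_4, at 165 CPM of interferon genes, had 34.6 CPM of C4b, within the WT range. In cFGF23-Hyp against Hyp all 18 genes had a positive log2 fold change (median 2.12), and all 18 did in cFGF23-Hyp against WT (1.61). In either comparison 0 of them were called, as were 0.0% of all genes tested. At an unadjusted p below 0.05 (edgeR), 15 and 16 of the 18 passed in the same order, against 10.4% and 5.73% of all genes. The 5 genes most like C4b over 15 libraries were Trim12c (r = 0.92, rho = 0.75), Bst2 (0.92, 0.64), Shisa5 (0.90, 0.74), Tapbp (0.90, 0.75) and Ifitm3 (0.89, 0.78). Bst2 and Ifitm3 encode interferon-induced antiviral membrane proteins, and Tapbp a protein that loads MHC class I. The part of interferon signalling in the C4b level was not tested.

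**Figure D4:**
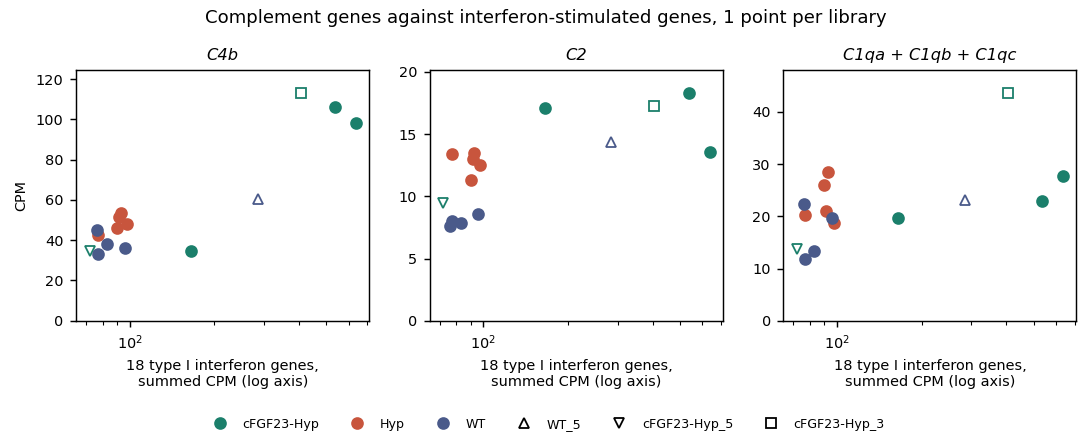
CPM of C4b, of C2 and of the 3 C1q genes summed (y axes) against the summed CPM of 18 type I interferon genes (x axis, log scale), 1 point per library. C4b is highest in the 3 libraries with the highest interferon sums (cFGF23-Hyp_1, cFGF23-Hyp_2 and cFGF23-Hyp_3), while Hyp and WT_1 to WT_4 libraries of like interferon level differ in C2.

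C4a, the close copy of C4b, ran the other way in its means. It was at 49.0 ± 12.7 CPM in cFGF23-Hyp, 60.6 ± 17.7 in Hyp and 74.7 ± 23.7 in WT (SD, n = 5 each), with a log2 fold change of -0.61 ± 0.24 in cFGF23-Hyp against WT (SE, adjusted p = 0.826, edgeR). Of the 50-base stretches of C4b transcripts 35.2% occurred also in C4a, so counts from shared exons are uncertain for both.

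C2 (ENSMUSG00000024371, chromosome 17, 35081580 to 35117241, minus strand) was at 13.6, 18.3, 17.3, 17.1 and 9.43 CPM in cFGF23-Hyp_1 to cFGF23-Hyp_5. It was at 12.5, 13.3, 13, 11.3 and 13.5 CPM in Hyp_1 to Hyp_5 and at 7.83, 8.05, 8.57, 7.63 and 14.4 CPM in WT_1 to WT_5. Hyp and WT overlapped through WT_5 alone, and cFGF23-Hyp and Hyp through cFGF23-Hyp_5 alone. Without these 2 libraries C2 averaged 16.6 ± 2.05 CPM in cFGF23-Hyp (n = 4), 12.7 ± 0.881 in Hyp (n = 5) and 8.02 ± 0.408 in WT (n = 4; SD). No 2 groups then overlapped, which follows from leaving out the libraries through which they overlapped and is no separate result. The gap between cFGF23-Hyp_1 (13.6 CPM) and Hyp_5 (13.5 CPM) was small. With these 2 libraries left out, C2 was 1 of 9 members without overlap in each comparison. Higher without overlap were 2.84% of all genes in cFGF23-Hyp against WT, 1.55% in cFGF23-Hyp against Hyp and 5.78% in Hyp against WT, and lower without overlap were 2.06%, 1.32% and 7.09%. With all libraries 0 of the 9 were free of overlap in any comparison, where 0.247%, 0.874% and 2.91% of all genes were higher and 0.241%, 0.963% and 2.84% lower without overlap. C2 and C4b had r = 0.66 and rho = 0.64 over 15 libraries (permutation adjusted p = 0.0246 and 0.0325), and r = 0.54 within groups.

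C2 lies 85 bases from Cfb in the deposited tables, and the read-through gene Gm20547 of GENCODE M21 joins both. Of the exonic bases 42.8% of C2 and 79.5% of Cfb belong also to Gm20547, and 4.16% of C2 lie opposite exons of Zbtb12, which is read from the other strand. How reads in shared exons were counted is not given in the sources used here, nor whether the libraries kept strand, so the C2 and Cfb counts are uncertain to that extent. Gm20547 was not analysed here.

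C3 (ENSMUSG00000024164, chromosome 17, 57510970 to 57535136, minus strand) encodes the protein on which all complement pathways meet. It varied the most between mice, 5.86-fold over the 15 libraries. C3 was at 23.7, 39.8, 51.1, 49.0 and 17.9 CPM in cFGF23-Hyp_1 to cFGF23-Hyp_5. It was at 38.4, 18.8, 37.0, 87.7 and 64.8 CPM in Hyp_1 to Hyp_5 and at 15, 23.0, 45.4, 36.1 and 29.4 CPM in WT_1 to WT_5. Hyp_4 and Hyp_5 stood above all other mice and Hyp_2 was among the lowest, so the higher Hyp mean (49.3 ± 27.0, against 29.8 ± 11.7 CPM in WT; SD, n = 5 each) came from part of the group. Without Hyp_4 the log2 fold change of Hyp against WT was 0.41 ± 0.37 (SE, adjusted p = 0.732, edgeR). In cFGF23-Hyp against WT it was 0.28 ± 0.38 (SE, adjusted p = 0.999, edgeR), and 0.13 ± 0.40 without cFGF23-Hyp_3.

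The 5 genes most like C3 were Trf (r = 0.93, rho = 0.92), Cidec (0.91, 0.88), Slc1a5 (0.90, 0.86), Slc1a3 (0.90, 0.80) and Steap4 (0.90, 0.82). Trf encodes transferrin, Cidec a lipid droplet protein of fat cells and Steap4 a metalloreductase of fat tissue. The 7 adipocyte markers, Lpl, Fabp4 and Cidec the highest, were all detected. They summed to 557 to 1470 CPM in cFGF23-Hyp, 529 to 1220 in Hyp and 653 to 987 in WT. Lpl alone averaged 667, 521 and 645 CPM in these groups, so the sums rest largely on it. Adipoq, which defines fat cells, ran from 3.25 to 42.9 CPM over the cFGF23-Hyp libraries (highest in cFGF23-Hyp_3, which also had the highest C3 of its group), from 2.38 to 53.5 CPM over the Hyp libraries and from 2.73 to 28.5 CPM over the WT libraries. The 12 hepatocyte markers summed to 125 to 1400 CPM in cFGF23-Hyp, 1100 to 1960 in Hyp and 140 to 553 in WT. Ttr, the highest of them, ran from 55.5 to 1260, from 917 to 1850 and from 44.3 to 463 CPM in these groups, while Alb averaged 5.21, 16 and 5.84 CPM in the same groups and Ahsg and Fgb were at 0 in at least 1 library of each. What part adipocyte or liver RNA has in the C3 level was not tested.

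Cfb (ENSMUSG00000090231, chromosome 17, 35075350 to 35081494, minus strand) encodes factor B, the protease of the alternative pathway. It was at 16.5, 18.7, 5.81, 12.4 and 14.1 CPM in cFGF23-Hyp_1 to cFGF23-Hyp_5. It was at 15.7, 15.4, 18, 14.3 and 17.5 CPM in Hyp_1 to Hyp_5 and at 21.4, 13.6, 15.5, 13 and 17.9 CPM in WT_1 to WT_5. The groups overlapped throughout, and cFGF23-Hyp_3 lay below all other libraries. The log2 fold change was -0.26 ± 0.22 in cFGF23-Hyp against WT, -0.25 ± 0.22 in cFGF23-Hyp against Hyp and -0.01 ± 0.22 in Hyp against WT (SE; adjusted p = 0.996, 0.676 and 0.991, edgeR), and its 95% intervals ran from -0.72 to 0.21, -0.72 to 0.21 and -0.47 to 0.45. Without cFGF23-Hyp_3 the first 2 estimates were -0.07 ± 0.15 and -0.06 ± 0.15. Cfb did not follow C2, its neighbour (r = -0.23, rho = 0.08, permutation adjusted p = 0.495 and 0.829, n = 15). The genes most like Cfb, led by Kdm4a (r = 0.95, rho = 0.78), Zfyve26 (0.95, 0.88), Zfp526 (0.95, 0.83), Smap1 (0.95, 0.82) and Rnf123 (0.95, 0.84), had r of 0.78 to 0.81 once cFGF23-Hyp_3 was left out.

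**Figure D5:**
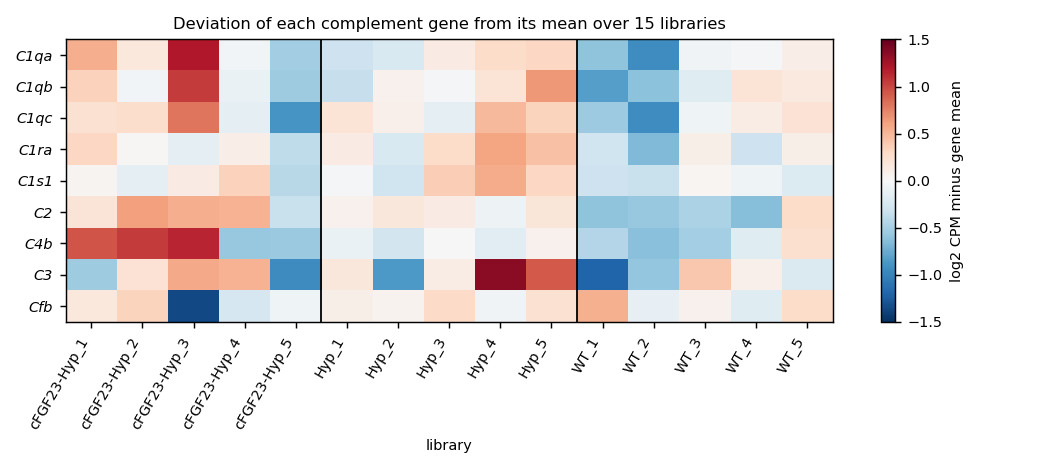
Deviation of log2 CPM from the 15-library mean of each gene (colour), with complement genes in rows and libraries in columns ordered cFGF23-Hyp, Hyp and WT. The 3 C1q rows resemble each other, as do the C1ra, C1s1 and C3 rows, C4b is high in cFGF23-Hyp_1 to cFGF23-Hyp_3, and Cfb is low in cFGF23-Hyp_3.

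The rest of the complement system was covered by 47 further genes, of which 42 were in the tables and 31 were tested. In each of the 3 comparisons 0 of them were called by edgeR. Of all genes tested, 0.342% were called in Hyp against WT and 0.0% in the others. Log2 fold changes were positive for 15 of 31 in cFGF23-Hyp against WT (median -0.02), for 10 in cFGF23-Hyp against Hyp (-0.11) and for 20 in Hyp against WT (0.19). At an unadjusted p below 0.05, 5, 5 and 7 of them passed in the same order, against 5.73%, 10.4% and 13.4% of all genes tested. Of the initiation proteins, C1rl, a C1r-like protease, was at 21.8, 22.5 and 23.6 CPM in cFGF23-Hyp, Hyp and WT. Colec12, a collectin receptor, was at 16.5, 18 and 14.6 CPM. Cfd, the factor D gene and a product of fat cells, spanned 4.64 to 234 CPM within cFGF23-Hyp, 11 to 177 in Hyp and 3.38 to 67.9 in WT, so its log2 fold change of 0.92 in cFGF23-Hyp against WT had an SE of 0.80. Cfp, properdin, which stabilises the alternative enzyme, was at 3.92, 4.42 and 3.95 CPM. Of the terminal components that form the membrane pore, C8a was at 48.2, 49.4 and 52.1 CPM, C8g at 19.6, 19.4 and 18.5 CPM and C7 at 2.67, 3.92 and 2.76 CPM.

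Per length, the fluid-phase regulators Clu and Serping1 stood above all 9 members in each group. Clu, clusterin, was at 58.5, 53.0 and 62.0 CPM per kilobase in cFGF23-Hyp, Hyp and WT, and Serping1, the inhibitor of C1r and C1s, at 20.4, 22.6 and 18.5. Of the membrane regulators, Cr1l had almost the same level in the 3 groups (54.3, 54.1 and 53.5 CPM), and Cd59a (23.8, 23.5 and 24.2 CPM) and Cd55 (16, 14.7 and 17.8 CPM) did not pass the test. Among receptors, Itgb2, the beta chain of complement receptor 3, was at 2.93 ± 0.347 CPM in cFGF23-Hyp, 4.60 ± 1.21 in Hyp and 3.16 ± 0.178 in WT (SD, n = 5 each). Its log2 fold change was -0.65 ± 0.18 in cFGF23-Hyp against Hyp and 0.54 ± 0.17 in Hyp against WT (SE; adjusted p = 0.232 and 0.186). Cd93 was at 17.1, 22.1 and 15.3 CPM, with 0.53 ± 0.14 in Hyp against WT (adjusted p = 0.115). Calr, calreticulin, which binds C1q at the cell surface but serves mainly as a chaperone, was at 900 ± 123, 905 ± 60.4 and 1050 ± 169 CPM in cFGF23-Hyp, Hyp and WT.

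Genes of NF-kB and acute-phase signalling, which can raise C3 and Cfb, were also measured as a list. Of 14 tested genes, 1 was called in Hyp against WT (Stat3, 0.39 ± 0.08, SE, adjusted p = 0.0421, edgeR), against 0.342% of all genes. In the other comparisons 0 were called (0.0% of all genes). In Hyp against WT 11 were positive (median 0.33) and 7 had an unadjusted p below 0.05, against 13.4% of all genes. In cFGF23-Hyp against Hyp 1 was positive (median -0.26) and 5 passed that threshold (10.4%). In cFGF23-Hyp against WT 8 were positive (median 0.03) and 1 passed it (5.73%). The sum of the 19 listed genes found ran from 231 to 273 CPM in cFGF23-Hyp, 256 to 345 in Hyp and 199 to 301 in WT. Interferon gamma and MHC genes (18, B2m, Irgm1 and H2-K1 the highest) summed to 333 to 716 CPM in cFGF23-Hyp, 331 to 413 in Hyp and 264 to 506 in WT. T and NK cell markers (10 genes) summed to no more than 5.02 CPM and the 6 neutrophil markers found to no more than 4.86 CPM in any library. Fibroblast markers (10 genes, all detected) summed to 146 to 306 CPM in cFGF23-Hyp, 247 to 293 in Hyp and 196 to 254 in WT.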

How the data were processed

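RNA of whole kidney was sequenced from NEBNext Ultra libraries, per the labels' protocols, with mm10 as the build per the submitters' processing notes. No aligner, counter or annotation is given in the sources used here. The authors deposited raw read counts per gene in 2 tables (Hyp against WT with 28216 genes, cFGF23-Hyp against Hyp with 28110), the gene length in bases, and their own log2 fold changes and p-values, which are quoted only as theirs. The 40 deposited columns of normalized values and FPKM were not used.

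The tables were joined on 27122 shared genes, with Hyp counts identical in both. Genes in 1 table only had at most 32 reads. The 299 unnamed entries (0.219% to 0.363% of the counts) were left out. No 2 libraries of a group agreed within sampling noise (lowest chi-square per degree of freedom 8.23).

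edgeR 4.0.16 under R 4.3.3 (quasi-likelihood F test, TMM, filterByExpr, 15789 genes kept, all 9 members among them) was fitted to all 15 libraries with group means only. The threshold was an adjusted p of 0.05 (Benjamini-Hochberg). SEs are the log2 fold change over the square root of F. CPM were computed from TMM-scaled library sizes, and correlations used log2 CPM with a prior count of 2 and 100000 permutations. Reads carry no molecular identifiers. The fit was tested on simulated data.

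Alternatives were DESeq2 1.42.0, its size factors, limma-voom (limma 3.58.1), other filters, fits of only the 2 groups compared, a replicate block, WT_5 placed in Hyp, each library left out, and fits without the libraries that stand apart. Members, gene lists and tests were chosen with earlier results of these data known. Named genes are the 9 members, their paralogs, up to 3 further complement genes per role with the highest CPM, and the 5 genes most like C3, Cfb, C4b and the C1q mean. Some genes that this rule names are not reported here. Transcripts are those of GENCODE M21 and promoters those of RefSeq (GRCm38.p6). The 250 bases before the start site were searched for motifs on both strands.

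Replicate numbers were not taken to pair the mice, since the labels name no shared litter or day. Deviations of same-numbered libraries from their group means correlated above 0.1 in 4 of 15 pairs (range -0.173 to 0.181). These correlations alone cannot show whether mice were paired.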

Additional observations from a re-analysis of the deposited data

Results flagged for a closer look

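C2 in WT kidneys was flagged because 1 library lay far from the other 4. WT_5 was at 14.4 CPM, against 7.63 to 8.57 CPM in WT_1 to WT_4, and its gap to the nearest of them took up 0.859 of the range of the group (critical value 0.71 for 5 libraries). This was the 1 case in 27 screens (9 genes in 3 groups), and chance flags about 1 in 20 groups. WT_5 is the library whose genotype label reads Phex_KO, and its C2 level was above those of the Hyp libraries (11.3 to 13.5 CPM). Of the tubule markers, Calb1 in WT_5 (273 CPM) lay within the Hyp range (196 to 282 CPM). Slc34a1 in WT_5 (4510 CPM) lay above the Hyp range (3280 to 3830 CPM). The genotype of WT_5 was not tested.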

How the results depend on the processing

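Of 675 refitted values for the 9 genes (27 fold changes, 25 alternatives), 666 kept their direction and their side of the threshold, 7 gained a call and 2 turned sign. Turns of uncalled genes by less than 1 SE (16) were counted as no change. The turns were C1qb in cFGF23-Hyp against Hyp without cFGF23-Hyp_3 (-0.189, in a range of -0.189 to 0.25 with 1 library left out) and Cfb in cFGF23-Hyp against WT without WT_5, cFGF23-Hyp_5 and cFGF23-Hyp_3 (0.006), and the cause was not tested. In Hyp against WT, 1 member was called with WT_5 placed in Hyp, without WT_5 and cFGF23-Hyp_5, and without these and cFGF23-Hyp_3. In cFGF23-Hyp against WT, 2 were called in each of the last 2 fits. With any 1 library left out, 0 members were called in each comparison. Over all genes, calls in cFGF23-Hyp against WT were 0 in the fit reported, 6 with DESeq2, 1 with WT_5 placed in Hyp, 177 without WT_5 and cFGF23-Hyp_5, 583 without these and cFGF23-Hyp_3, and 0 to 3 with 1 library left out. In cFGF23-Hyp against Hyp they were 0 as reported, 116 with DESeq2, 2 with limma-voom, 67 and 63 in the same 2 fits, and 0 to 25 with 1 library left out. In Hyp against WT they were 54 as reported, 356 with DESeq2, 516 with only the 2 groups compared, 97 with WT_5 placed in Hyp, 228 and 1527 in the same 2 fits, and 7 to 345 with 1 library left out. The replicate block gave 15 calls in Hyp against WT and 0 members in each comparison, and the numbers were not taken to pair the mice. C1qc, the lowest member in reads (38 in cFGF23-Hyp_5), is the one that depth limits most.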

Other observations

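Masp2, singled out after its values were seen, had the lowest p-value of the 31 further complement genes in Hyp against WT and in cFGF23-Hyp against Hyp. Masp2 encodes the protease that the lectin pathway uses to cut C4 and C2. It averaged 4.27 ± 0.88 CPM in cFGF23-Hyp, 2.30 ± 0.586 in Hyp and 4.06 ± 0.639 in WT (SD, n = 5 each). Its log2 fold change was 0.90 ± 0.20 in cFGF23-Hyp against Hyp and -0.82 ± 0.20 in Hyp against WT (SE; adjusted p = 0.192 and 0.0815, edgeR), so it passed in neither comparison. The cFGF23-Hyp values ran from 3.46 to 5.58 CPM, the Hyp values from 1.58 to 3.20 CPM and the WT values from 3.21 to 4.82 CPM. Hyp thus overlapped neither other group, though its gap to WT was small. Of all genes tested, 2.84% were lower without overlap in Hyp against WT and 0.874% higher in cFGF23-Hyp against Hyp.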
